A study of Homo sapiens with 16 samples.

Results

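The genes described here are the clustered protocadherins, adhesion receptors of the cadherin superfamily whose genes lie in 3 neighbouring clusters, alpha, beta and gamma, on the long arm of human chromosome 5. The members were taken by symbol from the deposited count table as PCDHA, PCDHB, PCDHGA, PCDHGB or PCDHGC followed by digits, with PCDHAC1 and PCDHAC2, and without pseudogenes. This rule gave 53 of the 35993 genes in the table, 15 in the alpha cluster, 16 in the beta cluster and 22 in the gamma cluster. RNA-seq was performed on 4 established bladder cancer (BC) cell lines with no engineered allele (253J, J82, RT112 and TCCSUP), treated for 48 h with vehicle or CM-1758. The latter is an inhibitor of histone deacetylases (HDACs), the enzymes that remove acetyl groups from histones, and each line received its own dose, set in the study by how strongly the line was inhibited, so that dose and line cannot be told apart. Each of the 8 groups of line and treatment had 2 libraries, 16 in all, from independent biological replicates of total RNA depleted of ribosomal RNA. 253J, J82 and RT112 were grown in DMEM and TCCSUP in EMEM, so that the medium and the line cannot be told apart for TCCSUP.

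Clustered protocadherins are best known in the nervous system, where each neuron uses its own small choice of members and the combination serves as a surface identity by which the branches of one cell recognise each other. Every member has its own variable first exon, with its own promoter, which encodes the extracellular cadherin repeats and the transmembrane segment. In the alpha and gamma clusters this exon is spliced to a set of constant exons that all members of the cluster share and that encode a common cytoplasmic end, whereas beta members consist of a variable exon only. The promoters are known for a short conserved element, the CGCT box, for binding of CTCF and cohesin, and for DNA methylation that silences members that are not chosen. The C-type members (PCDHAC1, PCDHAC2, PCDHGC3, PCDHGC4 and PCDHGC5) stand at the ends of the alpha and gamma clusters and are known to be used more uniformly among neurons than the rest.

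The promoter sequences are shown first because the letters around the box differ between the clusters. RefSeq promoter windows on GRCh38.p14, from 250 bases before to 50 bases after each annotated start, matched 47 of the 53 members with 52 windows. The letters CGCT, read on both strands, were in 51 of the 52 windows (98.1%), against 70.0% of the 35116 windows of all genes. On the plus strand they lay between 110 bases before and 10 bases after the start in 45 of the 47 members (95.7%), against 33.1% of all windows. The units differ, since a member was counted if any of its windows held the match, whereas the windows of all genes were counted singly. Below, 42 bases of the plus strand are given 5′ to 3′ for 15 members that the results turn on, with the CGCT letters in capitals.

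PCDHA1, chr5:140786076-140786117: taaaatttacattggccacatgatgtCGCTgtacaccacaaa
PCDHA2, chr5:140794771-140794812: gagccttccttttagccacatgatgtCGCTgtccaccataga
PCDHA6, chr5:140827887-140827928: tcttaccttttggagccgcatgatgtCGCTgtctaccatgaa
PCDHA10, chr5:140855831-140855872: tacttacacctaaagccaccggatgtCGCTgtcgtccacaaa
PCDHA12, chr5:140875234-140875275: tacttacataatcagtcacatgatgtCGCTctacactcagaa
PCDHAC1, chr5:140926210-140926251: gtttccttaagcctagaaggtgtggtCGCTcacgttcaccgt
PCDHAC2, chr5:140966409-140966450: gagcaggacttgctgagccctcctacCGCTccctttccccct
PCDHB3, chr5:141100383-141100424: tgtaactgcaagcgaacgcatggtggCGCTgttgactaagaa
PCDHB7, chr5:141172556-141172597: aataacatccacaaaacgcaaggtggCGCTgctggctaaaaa
PCDHB10, chr5:141192289-141192330: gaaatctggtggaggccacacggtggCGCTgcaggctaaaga
PCDHB14, chr5:141223253-141223294: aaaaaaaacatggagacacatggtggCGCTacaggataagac
PCDHGA7, chr5:141382639-141382680: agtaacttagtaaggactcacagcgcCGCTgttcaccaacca
PCDHGA8, chr5:141392558-141392599: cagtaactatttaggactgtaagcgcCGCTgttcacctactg
PCDHGB4, chr5:141387607-141387648: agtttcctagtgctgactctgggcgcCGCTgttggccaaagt
PCDHGC3, chr5:141475870-141475911: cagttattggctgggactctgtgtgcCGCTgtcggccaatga

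The letters around the box differed by cluster. GATGTCGCT was in 9 of 13 alpha windows (69.2%) and 0.105% of all windows, GGTGGCGCT in 13 of 14 beta windows (92.9%) and 0.501% of all, and GCCGCTGT in 13 of 25 gamma windows (52.0%) and 1.63% of all. These longer strings, which each contain or overlap CGCT and were read on both strands, were chosen after the windows had been read and are a description. The windows of PCDHAC1, PCDHAC2 and PCDHA11 hold the letters CGCT without the alpha letters around them, and the PCDHA9 window holds neither. PCDHAC1 and PCDHAC2 have 6 and 4 such matches on both strands, and the 1 printed was picked by its position. A match of these letters alone does not show the conserved element. PCDHGC3 and PCDHGC4 hold the gamma letters. CCNCNAGNG, 9 letters of the core of the CTCF motif read on both strands, was in 4 of the 52 windows (7.69%) and 21.1% of all windows. The median share of G and C bases was 40.7% in the member windows and 58.7% in all windows, and its part in this difference was not tested.

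The members of a cluster also share transcript sequence, which bears on how finely their counts can be told apart. In GENCODE 29 transcripts, all 15 alpha members contain a common run of 2866 bases, 45.3% to 54.7% of the 31-base words of the transcript, and all 22 gamma members contain one of 2181 bases, 45.3% to 47.3%. The 16 beta members have no such run, although 56.1% of the 31-base words of PCDHB8 recur in another beta transcript. How the authors' counting divided reads in shared exons is not given in the sources used here, so values of single alpha and gamma members are less certain than the sum over their cluster. A separate row for the alpha constant region, PCDHACT, which is no member, held 99 and 130 counts in the 253J control libraries and 0 to 44 in the control libraries of the other lines. With CM-1758 it held 49 and 83 counts in 253J, 0 and 24 in J82, 5 and 9 in RT112 and 2 and 3 in TCCSUP.

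The total count ran from 22506431 to 32537104 per library, and 21297 genes, all 53 members among them, were kept by a minimum on counts set over the 8 groups. Counts were scaled to TMM-normalised library sizes and are given as CPM, and rises and falls were called with edgeR's quasi-likelihood test at a Benjamini-Hochberg adjusted p under 0.05 over all tested genes, in 1 fit of all 8 groups. P-values rest on 2 libraries a group. Log2 fold changes are given with their standard error (SE), and a count of 0 allows up to 3 counts in a library, a floor that covers counting error only. Within a group the libraries had a Pearson correlation of 0.983 to 0.991 over all genes and of 0.880 (J82 with CM-1758) to 0.985 over the members. Of the 14 epithelial and urothelial markers, KRT8 and KRT18 were at 174 to 3029 CPM and 855 to 2326 CPM in the controls of the 4 lines, while UPK3A was at 0 in all control libraries and UPK1B and UPK2 were at 0 in 253J and J82 controls. Because these are bulk libraries, fewer cells that use a member and less RNA per cell cannot be told apart.

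**Figure D1:**
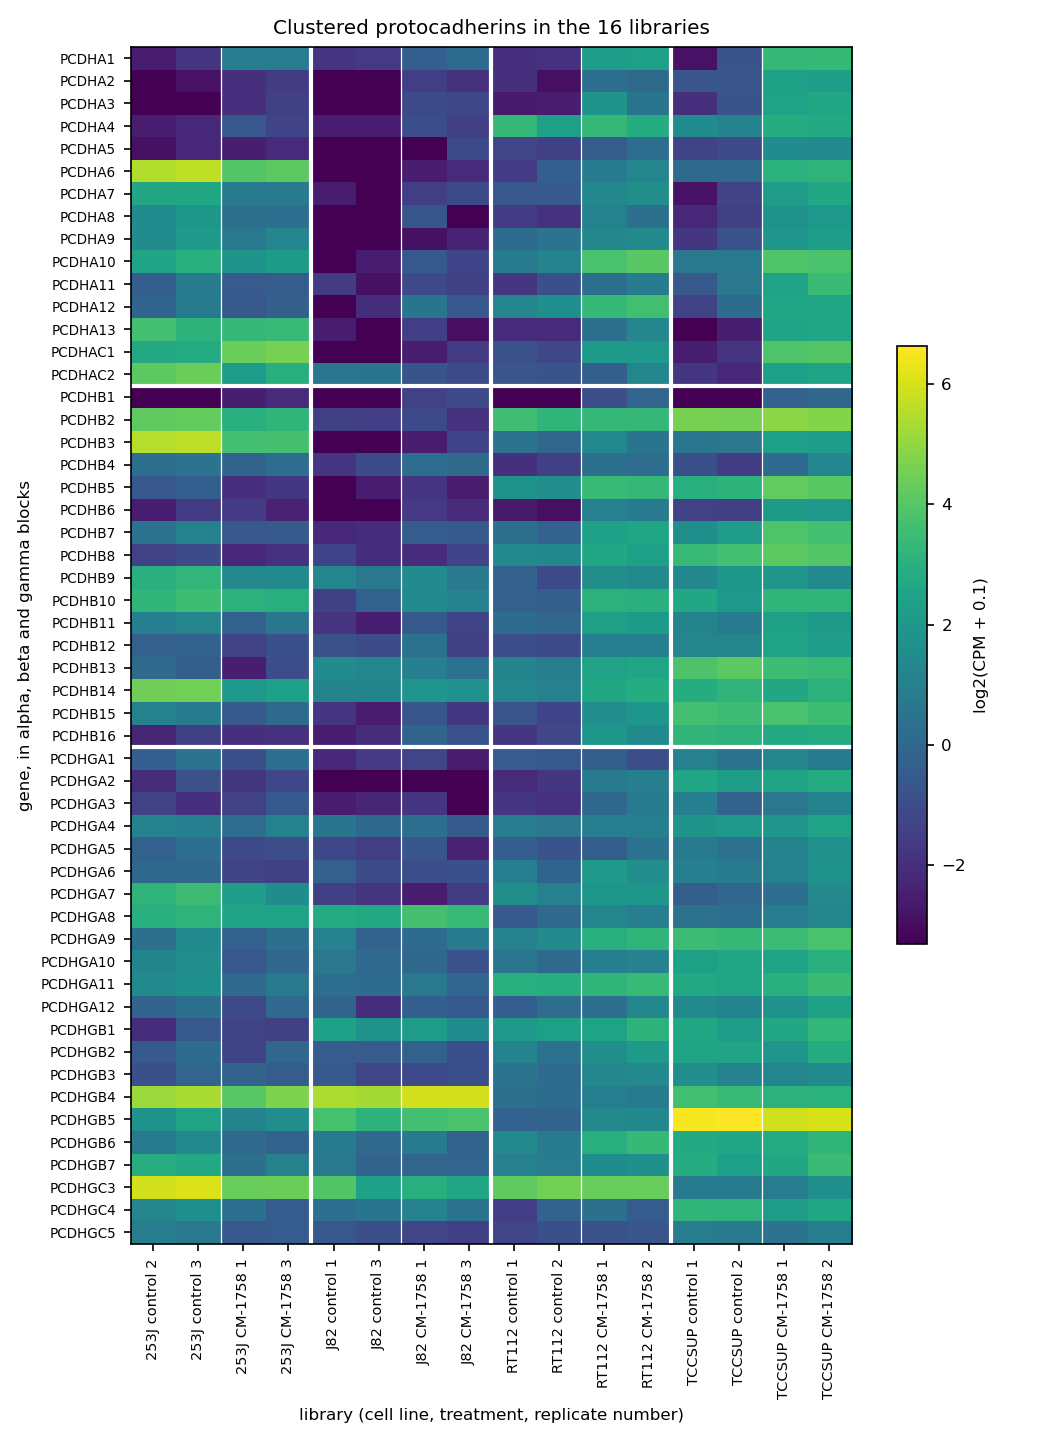
Level of each of the 53 clustered protocadherins (rows) in each of the 16 libraries (columns), as log2(CPM + 0.1), with white lines between clusters and between lines. Each control line had its own few bright members, such as PCDHA6, PCDHB3 and PCDHGC3 in 253J and PCDHGB5 in TCCSUP, and most alpha rows were brighter with CM-1758 in RT112 and TCCSUP.

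Before treatment, the 4 lines used different members. A difference between the control lines was called for 51 of the 53 members, against 78.8% of all tested genes, and the exceptions were PCDHA1 (adjusted p = 0.636) and PCDHB1 (adjusted p = 1), which was at 0 in all 8 control libraries. Summed over the alpha cluster, the control libraries held 106 ± 9.37 CPM in 253J (SD, n = 2), 16.2 ± 2.18 in RT112, 9.08 ± 1.82 in TCCSUP and 1.95 ± 0.140 in J82. The beta sums were 118 ± 8.09 CPM in 253J, 106 ± 3.84 in TCCSUP, 25.7 ± 4.08 in RT112 and 8.79 ± 0.457 in J82. The gamma sums were closer together, at 186 ± 3.06 CPM in TCCSUP, 154 ± 17.6 in 253J, 84.3 ± 17.5 in J82 and 54.0 ± 1.21 in RT112. Thus J82 controls were lowest for alpha and beta, with 3 of 15 alpha members above 3 counts in each library, and RT112 controls were lowest for gamma.

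Per base of transcript, 1 to 4 members made up 50% of each cluster's signal in every control line. In 253J controls the leading members were PCDHA6 (45.6% of the alpha signal per length), PCDHB3 (46.0% of beta) and PCDHGC3 (41.7% of gamma). J82 controls were led by PCDHAC2 (67.4%), PCDHB13 (24.8%) and PCDHGB4 (48.3%). RT112 controls were led by PCDHA4 (45.9%), PCDHB2 (38.1%) and PCDHGC3 (37.5%), and TCCSUP controls by PCDHA4 (27.3%), PCDHB2 (21.6%) and PCDHGB5 (51.8%). RT112 and TCCSUP therefore shared their leading alpha and beta members but not their leading gamma member.

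Across the 53 members, the Pearson correlation of log2 CPM between 2 control lines ran from 0.149 (253J and TCCSUP) to 0.560 (J82 and TCCSUP), a description over members that share clusters and exons. Within the beta cluster it was 0.803 between RT112 and TCCSUP over 16 members, and within the alpha cluster it was -0.22 between 253J and TCCSUP over 15 members.

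**Figure D2:**
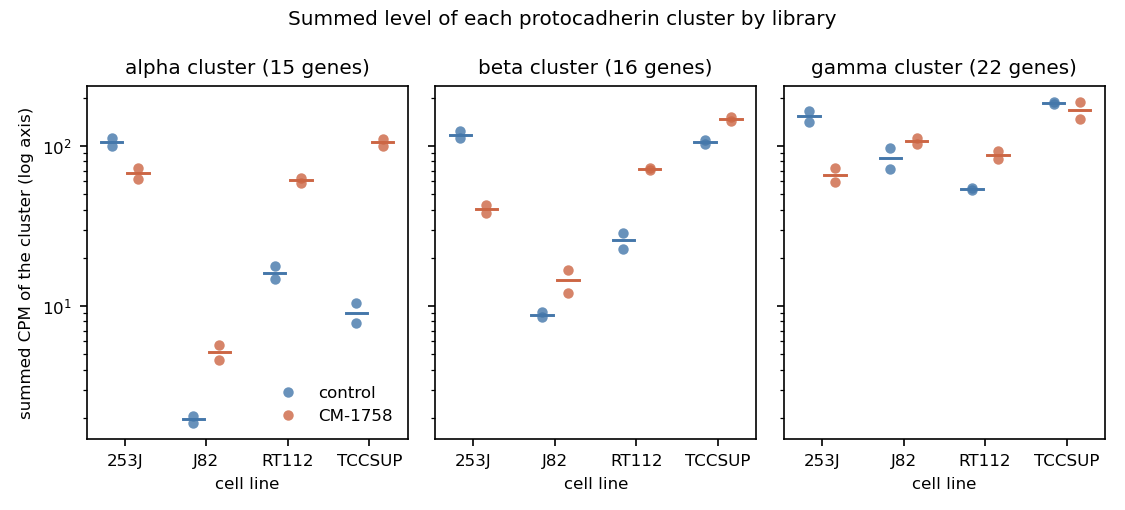
CPM summed over the alpha, beta and gamma members (panels, log axis) in each library (points) of each line, with the group mean as a bar. The alpha sum was higher with CM-1758 in J82, RT112 and TCCSUP and lower in 253J, and the gamma points of TCCSUP overlap.

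The alpha and beta sums were lower with CM-1758 in 253J and higher in the other lines. The alpha sum went from 9.08 ± 1.82 CPM in control to 105 ± 6.89 with CM-1758 in TCCSUP (11.6-fold higher), from 16.2 ± 2.18 to 61.1 ± 3.37 in RT112 (3.78-fold) and from 1.95 ± 0.140 to 5.15 ± 0.819 in J82 (2.64-fold). In 253J it went from 106 ± 9.37 to 67.7 ± 7.65 CPM (1.57-fold lower). The 2 treated libraries lay beyond the 2 control libraries in each line, and the alpha sums of the treated lines, apart from J82, came to lie within 61.1 to 105 CPM.

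The beta sum was 2.90-fold lower with CM-1758 in 253J (118 ± 8.09 to 40.5 ± 3.17 CPM), 2.80-fold higher in RT112 (25.7 ± 4.08 to 71.9 ± 1.93), 1.65-fold higher in J82 (8.79 ± 0.457 to 14.5 ± 3.35) and 1.39-fold higher in TCCSUP (106 ± 3.84 to 147 ± 6.97). The gamma sum was 2.33-fold lower in 253J (154 ± 17.6 to 66.2 ± 9.51 CPM) and 1.62-fold higher in RT112 (54.0 ± 1.21 to 87.6 ± 7.23). In J82 it was 84.3 ± 17.5 in control and 108 ± 6.14 CPM with CM-1758. TCCSUP held 186 ± 3.06 and 168 ± 27.5 CPM, and its treated libraries, at 148 and 187, overlapped the controls at 184 and 188. The gamma ratio of TCCSUP changed sign with the scaling, from -0.15 on the log2 scale to 0.16 with library size alone. Sums over members are given as values, without a test.

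In TCCSUP, all 15 alpha members rose with CM-1758. Over the 53 members 26 rose and 1 fell, against 32% and 22.1% of all tested genes. By cluster, 15 of 15 alpha, 9 of 16 beta and 2 of 22 gamma members rose, with median log2 fold changes of 3.65, 1.01 and 0.30 against 0.20 over all genes. At a log2 fold change beyond 2 and an adjusted p under 0.01, 17 members were higher, 14 of them alpha, against 14.2% of all genes, and the 1 member that fell did not pass this rule, against 3.31% of all genes that were lower by it.

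PCDHAC1, a C-type member, had 0.0791 and 0.191 CPM in the TCCSUP control libraries and 14.7 and 15.4 CPM with CM-1758. The 2 groups were far apart, and its log2 fold change was 6.74 ± 0.40 (SE, adjusted p = 2.11e-08). PCDHA13, which precedes PCDHAC1 in the cluster, held 0 and 2 counts in the control and 149 and 144 in the treated libraries, a ratio of 144 with a 95% counting interval of 39.6 to 1198. The other C-type alpha member, PCDHAC2, went from 0.198 and 0.115 to 4.75 and 5.47 CPM (log2 fold change 5.00 ± 0.55, adjusted p = 3.26e-06). PCDHA1 was at 0.0396 and 0.498 CPM in control and 9.80 and 10.1 with CM-1758 (5.17 ± 0.53, adjusted p = 1.66e-06). Its control libraries held 1 and 13 counts, so that the size of the change depends on a few reads. PCDHA6 had 0.989 and 0.957 CPM in control and 8.12 and 8.81 with CM-1758 (3.12 ± 0.31, adjusted p = 1.81e-06), and PCDHA10 had 1.50 and 1.53 against 14.9 and 13.6 (3.23 ± 0.33, adjusted p = 1.35e-06). PCDHA4, which led the cluster in control, rose least, from 70 and 54 counts to 189 and 169 counts (1.50 ± 0.35, adjusted p = 0.00227).

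Among beta members of TCCSUP, which carry the whole receptor in 1 exon, PCDHB1 was at 0 counts in both control libraries and at 21 and 23 counts with CM-1758, at least 7.24-fold higher against the floor of 3 counts a library (adjusted p = 0.000642). PCDHB6 went from 7 counts in each control library to 111 and 97 with CM-1758 (log2 fold change 3.85 ± 0.51, adjusted p = 2.62e-05). PCDHB2, the highest beta member of this line per length, had 24.2 and 23.2 CPM in control and 30.2 and 27.7 with CM-1758 and did not pass the test (0.29 ± 0.18, adjusted p = 0.196). The treated libraries of PCDHB2 lay above the control libraries, but by less than the test needed. PCDHB13, PCDHB14, PCDHB15 and PCDHB16 were at log2 fold changes of -0.51, -0.13, 0.07 and -0.39 and did not pass either.

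PCDHGB5, the member with the highest level per length of all 53 in TCCSUP controls, was the 1 member that fell in this line. It had 92.0 and 99.3 CPM in control and 60.4 and 65.0 CPM with CM-1758, 1.53-fold lower (log2 fold change -0.61 ± 0.19, adjusted p = 0.0155). Its groups did not overlap, but the call was lost with library size alone (-0.30, adjusted p = 0.228) and when TCCSUP control replicate 2, CM-1758 replicate 1 or CM-1758 replicate 2 was left out, with adjusted p up to 0.0924. The gamma members that rose were PCDHGA7, from 18 and 24 counts to 31 and 63 (1.15 ± 0.45, adjusted p = 0.0435), and PCDHGA8, from 31 and 30 counts to 46 and 57 (0.74 ± 0.29, adjusted p = 0.0462). The call of PCDHGA7 was lost when any of 7 libraries was left out, with adjusted p up to 0.458 without TCCSUP CM-1758 replicate 2, and without the filter on low counts (adjusted p = 0.0503). The C-type gamma members did not pass: PCDHGC3 was at 1.62 and 1.65 against 1.76 and 2.99 CPM, PCDHGC4 at 9.06 and 8.69 against 4.30 and 5.98 CPM, and PCDHGC5 at 1.70 and 1.68 against 1.27 and 1.89 CPM.

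In RT112, 35 of the 53 members rose and 0 fell, against 27.4% and 20.2% of all tested genes. The count of 0 was also found by DESeq2 and at an unadjusted p under 0.05 in edgeR. The rises were in 13 of 15 alpha, 14 of 16 beta and 8 of 22 gamma members, with median log2 fold changes of 2.18, 2.24 and 0.77 against 0.12 over all genes. At the stricter rule 23 members were higher, against 11.4% of all genes, and the treated libraries lay above both control libraries for 47 members, against 41.8% of all genes.

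PCDHA3 had 2 counts in each RT112 control library and 88 and 36 counts with CM-1758 (log2 fold change 5.08 ± 0.72, adjusted p = 8.26e-05). The treated libraries differed from each other by more than 2-fold but lay well above the controls. PCDHA1 went from 5 counts in each control library to 120 and 128 (4.81 ± 0.56, adjusted p = 7.53e-06), and PCDHA10 from 1.67 and 2.10 to 13.7 and 16.8 CPM (3.01 ± 0.32, adjusted p = 2.95e-06). PCDHAC1 went from 14 and 10 counts to 103 and 100 (3.28 ± 0.34, adjusted p = 3.93e-06). PCDHAC2, at 16 and 15 counts in control and 18 and 59 with CM-1758, rested on 1 treated library (1.51 ± 0.48, adjusted p = 0.0166). Its adjusted p was 0.524 without RT112 CM-1758 replicate 2, and the call was also lost without either control library. PCDHA4, which led the alpha cluster of this line before treatment, had 298 and 143 counts in control and 250 and 188 with CM-1758 and did not pass (0.22 ± 0.33, adjusted p = 0.633).

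Beta members of RT112 rose from low levels. PCDHB1 had 0 counts in both control libraries and 11 and 22 with CM-1758, at least 6.36-fold higher (adjusted p = 0.00106). PCDHB6 had 2 and 1 counts in control and 49 and 41 with CM-1758, a ratio of 34.8 with a counting interval of 11.5 to 172. PCDHB10 and PCDHB16, named here after their values were seen, went from 22 and 21 to 212 and 206 counts and from 6 and 10 to 97 and 68 counts. PCDHB2, the leading beta member in control, had 366 and 265 counts in control and 250 and 254 with CM-1758 (-0.11 ± 0.19, adjusted p = 0.690). Scaled for depth its groups overlapped, and PCDHB5 held the largest per-length share of the beta signal with CM-1758, at 15.7%.

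Among gamma members of RT112, PCDHGB6 had 2.52 and 1.59 CPM in control and 7.71 and 10.0 with CM-1758 (log2 fold change 2.11 ± 0.37, adjusted p = 0.000286). PCDHGB5 had 24 counts in each control library and 63 and 64 with CM-1758 (1.61 ± 0.30, adjusted p = 0.000522), the reverse of its direction in TCCSUP and 253J. PCDHGA6 had 57 and 24 counts in control and 105 and 74 with CM-1758 (1.37 ± 0.42, adjusted p = 0.0148), a call lost without control replicate 2 (adjusted p = 0.154) or CM-1758 replicate 1 (adjusted p = 0.120). PCDHGC3, the leading gamma member, stood at 18.1 and 22.8 CPM in control and 19.9 and 20.1 with CM-1758 (-0.03 ± 0.33, adjusted p = 0.982). PCDHGC4 and PCDHGC5 also did not pass, at log2 fold changes of 0.81 ± 0.51 and 0.39 ± 0.45.

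In J82, 21 members rose and 1 fell, against 24% and 18.5% of all tested genes. By cluster 11 of 15 alpha, 8 of 16 beta and 2 of 22 gamma members rose. Before treatment PCDHAC2, PCDHB9, PCDHB13 and PCDHB14 held 36 to 71 counts in this line and the other alpha and beta members 0 to 21, and 11 of the 21 rises started from 0 to 3 counts over both control libraries. The median log2 fold change of the alpha members was 3.62 as fitted, and that of the beta members 1.68. With members at 0 in control set to their floor, where their treated counts averaged more than 3, the medians were 1.79 and 1.14. PCDHA6 and PCDHA9, at 0 in control with fewer treated counts, stayed at their fitted 4.57 and 4.01. The alpha median of 1.79 is therefore no lower bound. Among the 28 members with a mean of at least 10 counts over the 4 J82 libraries, a choice made after seeing the data, 8 rose. At the stricter rule 11 members were higher, against 8.81% of all genes, and the 1 member that fell did not pass it, against 1.24% that were lower.

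PCDHA3 had 0 counts in both J82 control libraries and 10 in each treated library, at least 3.12-fold higher (adjusted p = 0.00408). PCDHB1 went from 0 in both to 8 and 11 counts, at least 2.95-fold higher (adjusted p = 0.00543), and PCDHA2 from 0 in both to 7 and 5, at least 1.88-fold higher (adjusted p = 0.00518). PCDHA10, with 0 and 2 counts in control and 16 and 9 with CM-1758, had a ratio of 11.7 with a counting interval of 2.92 to 102. These rises are of a few reads each, and PCDHA8 had 0 counts in 3 of the 4 libraries and 15 in CM-1758 replicate 1, without which its adjusted p was 1. The calls of PCDHAC1 (0 and 0 against 2 and 7 counts) and PCDHB3 (0 and 0 against 2 and 9) were lost without CM-1758 replicate 3, at adjusted p of 0.0986 and 0.106. The call of PCDHA6 (0 and 0 against 2 and 4 counts) was lost without control replicate 1 or 3 or CM-1758 replicate 3, at adjusted p up to 0.137. The call of PCDHA1 (5 and 6 against 19 and 30 counts) was lost without control replicate 1 or CM-1758 replicate 3, and that of PCDHA7 (2 and 0 against 7 and 11) without control replicate 3 or CM-1758 replicate 3, at adjusted p up to 0.0868 and 0.122.

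Among the other rises in J82, PCDHA12 went from 0 and 4 to 38 and 17 counts (log2 fold change 3.62 ± 0.85, adjusted p = 0.00302). PCDHB10 went from 7 and 21 to 71 and 60 counts (2.13 ± 0.38, adjusted p = 0.000416). Whether these 2 calls held without single libraries was not examined. PCDHB7 had 3 and 4 counts in control and 18 in each treated library (log2 fold change 2.23 ± 0.50, adjusted p = 0.00223). PCDHAC2, which made up 67.4% of the alpha signal per length in control, was the 1 member that fell. It had 37 and 36 counts in control and 14 and 11 with CM-1758, 3.09-fold lower (-1.63 ± 0.49, adjusted p = 0.0150), a call lost without CM-1758 replicate 3 (adjusted p = 0.0988). PCDHGB4, the highest gamma member of J82 per length, had 42.0 and 39.0 CPM in control and 62.3 and 62.2 with CM-1758 (0.62 ± 0.18, adjusted p = 0.0112). The groups did not overlap, and the call was lost without control replicate 3 (adjusted p = 0.0592). PCDHGA8, the other gamma member that rose, went from 180 and 179 to 356 and 305 counts (0.79 ± 0.25, adjusted p = 0.0172). PCDHGC3 had 400 and 141 counts in control and 212 and 168 with CM-1758, so that its control libraries lay on both sides of the treated ones. PCDHGA2 had 0 counts in all 4 J82 libraries.

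In 253J, 23 members fell and 6 rose, against 22.4% and 28.8% of all tested genes. The falls were in 4 of 15 alpha, 8 of 16 beta and 11 of 22 gamma members. The median log2 fold change was -0.80 in the alpha, -1.16 in the beta and -0.89 in the gamma cluster, against 0.10 over all genes, and the treated libraries lay below both control libraries for 35 of the 53 members, against 32.1% of all genes. At the stricter rule 2 members were lower, against 3.5% of all genes, and 1 was higher, against 9.43%.

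PCDHB14 fell most, from 22.4 and 22.5 CPM in control to 3.84 and 4.86 with CM-1758, 5.15-fold lower (log2 fold change -2.36 ± 0.23, adjusted p = 8.46e-07). PCDHGB7 went from 7.31 and 6.55 to 1.19 and 1.99 CPM, 4.32-fold lower (-2.11 ± 0.36, adjusted p = 0.000188). PCDHB3, the leading beta member of the line, went from 45.6 and 50.1 to 12.4 and 13.1 CPM, 3.76-fold lower (-1.91 ± 0.27, adjusted p = 4.19e-05). The leading members of the other clusters fell as well. PCDHA6 went from 44.5 and 50.6 to 15.6 and 17.1 CPM, 2.90-fold lower (-1.54 ± 0.25, adjusted p = 0.000128). PCDHGC3 went from 61.6 and 68.6 to 20.1 and 21.0 CPM, 3.16-fold lower (-1.66 ± 0.33, adjusted p = 0.00062). PCDHGB4 went from 34.8 and 41.2 to 16.6 and 26.1 CPM, 1.78-fold lower (-0.83 ± 0.18, adjusted p = 0.00139). Among the other C-type members, PCDHAC2 (17.4 and 21.2 to 4.47 and 7.56 CPM), PCDHGC4 (2.21 and 2.99 to 1.15 and 0.641 CPM) and PCDHGC5 (1.77 and 1.53 to 0.594 and 0.641 CPM) fell too.

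The falls of PCDHA10, PCDHB15, PCDHGB5 and PCDHGB6 in 253J were not called with library size alone, at adjusted p of 0.156, 0.0777, 0.125 and 0.0901. Leaving out 1 of the 4 253J libraries ended the calls of these members and of PCDHB13, PCDHGA6, PCDHGA7 and PCDHGC4, each of the 4 libraries ending at least 1 of them, at adjusted p up to 0.268 for PCDHA10 without control replicate 3.

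The 6 members that rose in 253J were PCDHA1, PCDHA2, PCDHA3, PCDHA4, PCDHAC1 and PCDHB1. PCDHAC1 alone of these was well expressed, at 6.30 and 6.97 CPM in control and 20.7 and 24.3 CPM with CM-1758 (log2 fold change 1.76 ± 0.26, adjusted p = 5.64e-05). It thereby moved against PCDHAC2 and held the largest share of the alpha signal per length with CM-1758, 33.9%. PCDHA1 had 2 and 5 counts in control and 43 and 51 with CM-1758 (3.67 ± 0.62, adjusted p = 0.000155). The remaining rises were of few reads: PCDHA4 had 2 and 3 against 14 and 9 counts, PCDHA3 0 and 0 against 4 and 8, PCDHA2 0 and 1 against 4 and 7, and PCDHB1 0 and 0 against 2 and 4. The calls of PCDHA2 and PCDHA3 were lost without control replicate 2 or CM-1758 replicate 3, at adjusted p up to 0.138 and 0.055, and that of PCDHB1 when any of 10 libraries was left out, at adjusted p up to 0.144. PCDHA2 and PCDHB1 were not called by DESeq2 (adjusted p = 0.0602 and 0.0910), and 2 of the 6 rises were among the 42 members whose mean count in this line was 10 or more.

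**Figure D3:**
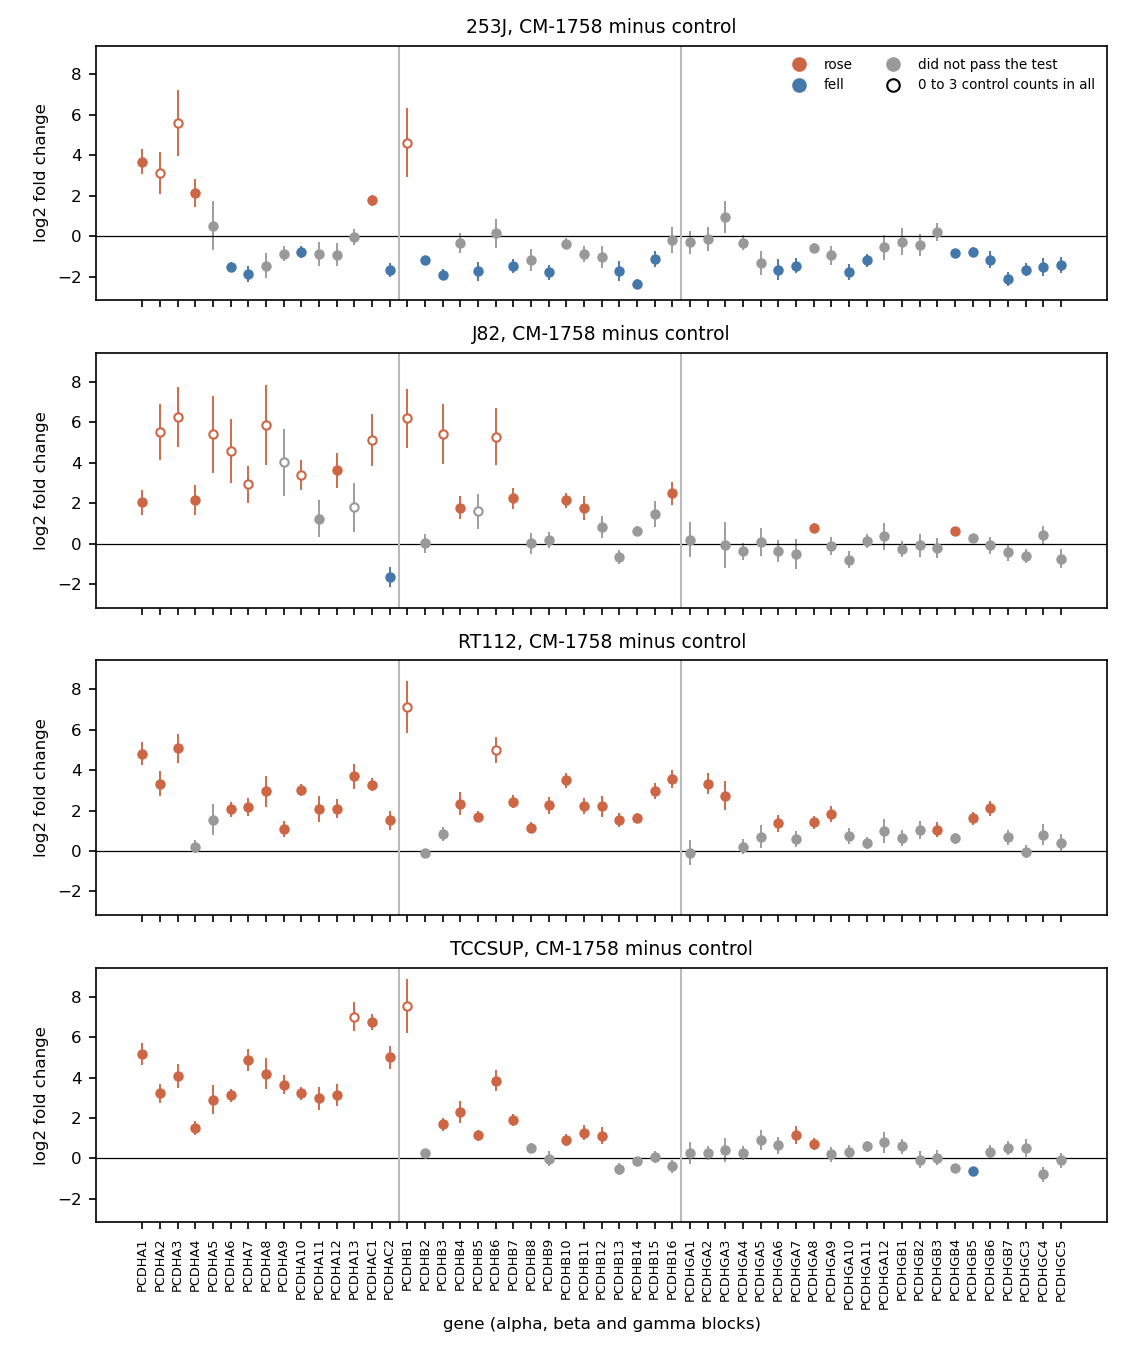
Log2 fold change (CM-1758 minus control, edgeR) with its SE for each member in each line (panels), coloured by whether it rose, fell or did not pass the test; open circles mark members with 0 to 3 control counts in all, whose fitted change is no bound. Members that fell make up most of the called points in 253J, and the alpha members of TCCSUP all lie above 0.

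The effect of CM-1758 differed between the 4 lines for 40 of the 53 members by the interaction test, against 51.9% of all tested genes. These were 12 alpha, 15 beta and 13 gamma members. In all 4 lines, 5 members rose, namely PCDHA1, PCDHA2, PCDHA3, PCDHAC1 and PCDHB1, against 6.69% of all genes, and 17 rose in at least 3 lines, against 17.5%. The 5 became 3 with DESeq2, without PCDHA2 and PCDHB1, and 4 with a minimum mean of 10 counts, without PCDHB1. With edgeR 0 members fell in all 4 lines, against 6.01% of all genes, and the count was also 0 at an unadjusted p under 0.05 and, since 0 fell in RT112, by DESeq2. PCDHA1, PCDHA2, PCDHA3 and PCDHB1 carry the lowest numbers of their clusters and stood at 0 to 14 counts in every control library, whereas PCDHAC1 was well expressed in 253J controls.

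Called changes went in opposite directions in 16 members, against 12.9% of all tested genes. All 16 passed the interaction test, which the choice by opposite calls in the same fit made likely beforehand. With library size alone there were 14, of which 12 were among these 16. They comprised 4 alpha members (PCDHA6, PCDHA7, PCDHA10 and PCDHAC2), 7 beta members (PCDHB3, PCDHB5, PCDHB7, PCDHB9, PCDHB13, PCDHB14 and PCDHB15) and 5 gamma members (PCDHGA6, PCDHGA7, PCDHGB4, PCDHGB5 and PCDHGB6). All 16 fell in 253J and rose in at least 1 other line. In 6 of them, PCDHA6, PCDHA7, PCDHA10, PCDHAC2, PCDHB5 and PCDHB7, the member fell in 253J and rose in both RT112 and TCCSUP, against 0.864% of all tested genes. Of these calls, the rise of PCDHAC2 in RT112 rested on 1 treated library. The fall of PCDHA10 in 253J was not called with library size alone. PCDHA7 shows the pattern in full: 6.08 and 5.94 CPM in 253J controls against 1.58 and 1.69 with CM-1758, and 0.0396 and 0.306 CPM in TCCSUP controls against 4.49 and 5.98. PCDHB9 fell in 253J from 7.71 and 9.65 to 2.46 and 2.53 CPM and rose in RT112 from 0.784 and 0.373 to 2.93 and 2.63 CPM. PCDHB15 fell in 253J from 54 and 41 to 15 and 29 counts and rose in RT112 from 16 and 9 to 74 and 97.

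No change was called in any line for 6 members, all gamma: PCDHGA1, PCDHGA4, PCDHGA5, PCDHGA12, PCDHGB1 and PCDHGB2. The share of all tested genes without a call in any line was not determined, so this count has no background. The groups of some of these members still did not overlap. PCDHGB1 in RT112, for example, had 4.02 and 4.98 CPM in control and 5.36 and 8.58 with CM-1758 (log2 fold change 0.63 ± 0.39, adjusted p = 0.195). PCDHGA5 in 253J was at 0.954 CPM in control and 0.381 with CM-1758 (-1.31 ± 0.59, adjusted p = 0.0790). PCDHGB2 in RT112 was at 1.71 and 3.51 CPM (1.04 ± 0.44, adjusted p = 0.0646). Values that miss the threshold do not show that these members were unaffected.

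**Figure D4:**
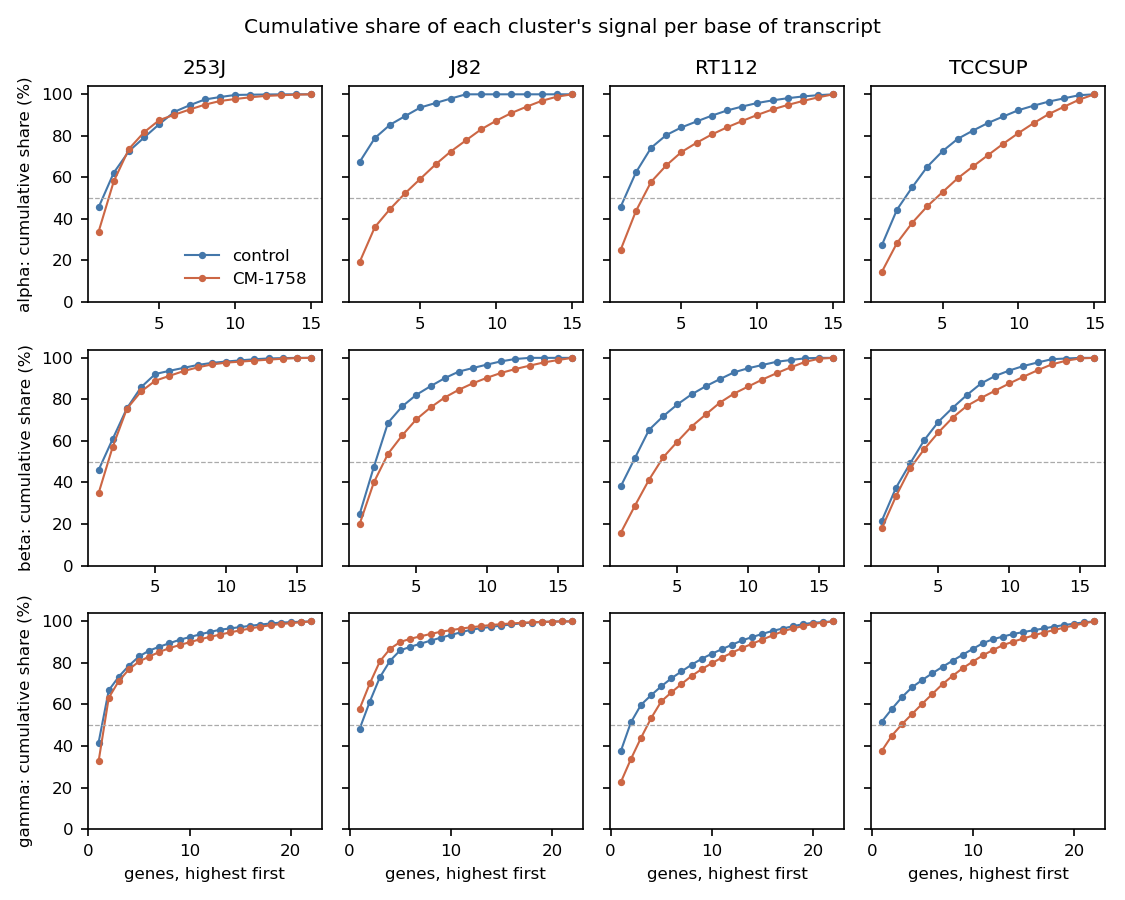
Cumulative share of each cluster's CPM per base of transcript (y axis, percent) over its members ordered from highest to lowest (x axis), in control and with CM-1758, for each cluster (rows) and line (columns), with a dashed line at 50%. The CM-1758 curve lies below the control curve for alpha in J82, RT112 and TCCSUP, where 3 to 5 members made up 50% of the signal against 1 to 3 in control, and above it for gamma in J82.

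With CM-1758 the signal was spread over more members of the alpha cluster in J82, RT112 and TCCSUP. The 3 highest alpha members held 85.3% of the per-length signal in J82 controls and 44.8% with CM-1758, 74.2% and 57.8% in RT112, and 55.2% and 38.1% in TCCSUP, whereas in 253J they held 72.6% and 73.7%. The count of alpha members above 3 counts was 3 in both J82 control libraries and 11 and 12 with CM-1758, and all 15 alpha and 16 beta members were above it in the treated RT112 and TCCSUP libraries. The total count of these treated libraries was 22506431 to 23975428, against 28033920 to 30502612 in their controls. Detection was also wider over the whole table. Genes with any count numbered 20286 and 19532 in J82 controls and 22232 and 22337 with CM-1758. In RT112 and TCCSUP they numbered 20108 to 20400 in control and 23080 to 24905 with CM-1758. The share of all genes above 3 counts was not determined. For beta the share of the 3 highest went from 65.4% to 41.4% in RT112, 68.7% to 53.8% in J82 and 49.2% to 46.8% in TCCSUP, and stood at 75.7% and 75.5% in 253J. For gamma it went from 59.8% to 43.9% in RT112 and 63.6% to 50.6% in TCCSUP, but from 73.1% to 80.8% in J82, where PCDHGB4 went from 48.3% to 58.0%.

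The lines did not come to use the same members throughout. Over all 53 members the Pearson correlation of log2 CPM went from 0.560 in control to 0.177 with CM-1758 between J82 and TCCSUP, from 0.454 to 0.255 between J82 and RT112, from 0.403 to 0.215 between 253J and RT112 and from 0.390 to 0.321 between 253J and J82. It was 0.535 and 0.537 between RT112 and TCCSUP and 0.149 and 0.172 between 253J and TCCSUP. Within clusters, the correlation of the 16 beta members was 0.803 and 0.887 between RT112 and TCCSUP and 0.457 and -0.16 between J82 and TCCSUP. That of the 15 alpha members was 0.599 and 0.607 between RT112 and TCCSUP. Between 253J and TCCSUP the alpha correlation was -0.22 in control and 0.56 with CM-1758. It was 0.12 and 0.56 between J82 and RT112, and -0.11 and 0.32 between J82 and TCCSUP. Between 253J and J82 it was 0.18 and -0.22, and between 253J and RT112 0.13 and 0.14. The values over all 53 members also reflect differences in level between the clusters. The range of log2 CPM over the 4 lines, highest minus lowest, was smaller with CM-1758 in 9 of 15 alpha, 8 of 16 beta and 5 of 22 gamma members.

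For the lists of genes around and beyond the clusters, the share of all tested genes that rose was 28.8%, 24%, 27.4% and 32% in 253J, J82, RT112 and TCCSUP, and the share that fell was 22.4%, 18.5%, 20.2% and 22.1%. Of 10 tested protocadherins outside the clusters, 4, 8, 7 and 8 rose and 0, 0, 1 and 1 fell in 253J, J82, RT112 and TCCSUP. PCDH9, PCDH10, PCDH17 and PCDH19 rose in all 4 lines, PCDH9 from 8.16 to 177 CPM in 253J and from 0.648 to 36.6 in RT112, and PCDH7 fell in RT112 (272 to 154 CPM) and TCCSUP (175 to 72.4 CPM). Of 4 pseudogenes of the beta and gamma clusters, 2 fell in 253J, 0 were called in J82, and 3 and 2 rose in RT112 and TCCSUP. Of 9 protein-coding neighbours of the clusters, 6, 2, 3 and 2 rose and 1, 1, 2 and 1 fell in 253J, J82, RT112 and TCCSUP. HDAC3, a histone deacetylase gene beside the gamma cluster, rose in all 4 lines, from 58.4 to 158 CPM in 253J and from 55.6 to 74.8 CPM in RT112, as did FCHSD1, an adaptor of the actin cytoskeleton.

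Of 25 chromatin and architecture factors known to act on the clusters, 21, 15, 12 and 14 fell and 1, 1, 3 and 1 rose in 253J, J82, RT112 and TCCSUP. CTCF, the insulator protein that binds their promoters, fell in all 4 lines, from 50.8 to 19.8 CPM in 253J (log2 fold change -1.36) and by 0.95, 0.63 and 0.89 on the log2 scale in J82, RT112 and TCCSUP. So did the cohesin genes SMC1A, STAG1 and STAG2, the cohesin loader gene MAU2, UHRF1, which guides maintenance of DNA methylation, TRIM28 and the histone methyltransferase gene SUV39H1. DNMT3B, a de novo DNA methyltransferase, fell in 253J from 95.8 to 15.5 CPM (-2.62) and by 0.46 in TCCSUP, and did not pass in J82 (-0.23) or RT112 (-0.26). With library size alone 4 factors rose and 11 fell in TCCSUP, and 15 fell in 253J.

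Of 16 genes for cytoplasmic and processing partners of the receptors, 8, 4, 5 and 3 rose and 4, 6, 2 and 8 fell in 253J, J82, RT112 and TCCSUP, and with library size alone 5 rose and 4 fell in TCCSUP. CYFIP1 and NCKAP1, subunits of the WAVE complex that binds the cytoplasmic ends of many members, fell in all 4 lines, and RET, a receptor kinase that can associate with them, rose in all 4. ADAM10, the protease that sheds the ectodomain, fell in 253J from 1771 to 310 CPM (log2 fold change -2.52) and in TCCSUP from 589 to 232 CPM (-1.34). CYFIP2 rose in J82, RT112 and TCCSUP, from 0.720 to 29.2 CPM in the last, and FYN, a kinase that can associate with alpha members, rose in 253J (2.47), J82 (1.70) and RT112 (2.57).

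Neuronal markers moved with the treatment in every line, also where the clusters fell. Of 6 tested markers of 8, 5 rose in TCCSUP and 6 in each of the other lines, and their summed level was 109 to 121 CPM in control and 505 to 533 with CM-1758 in 253J, 157 to 192 and 381 to 412 in J82, 30.3 to 30.8 and 151 to 176 in RT112, and 252 to 292 and 455 to 468 in TCCSUP. RBFOX3 and ELAVL3, which define mature neurons, were too low to be tested. Epithelial and urothelial markers rose and fell in counts of 2 and 4 in 253J, 5 and 1 in J82, 1 and 4 in RT112 and 4 and 6 in TCCSUP, with summed levels of 3191 to 4342 CPM in control and 1871 to 2359 with CM-1758 in 253J, 5968 to 8100 and 6970 to 7889 in J82, 8229 to 8629 and 6287 to 7068 in RT112, and 1339 to 1460 and 514 to 599 in TCCSUP. Of the 4 immune markers 2 were tested. PTPRC rose in J82 and fell in TCCSUP, and CD14 rose in RT112, at summed levels of at most 20.9 CPM in any library. Of 3 endothelial markers 1 rose in 253J and TCCSUP, at summed levels of at most 6.02 CPM. The part of these markers in the changes of the protocadherins was not tested.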

How the data were processed

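Stranded total RNA libraries of 4 bladder cancer cell lines, given CM-1758 or vehicle for 48 h, were sequenced on an Illumina NovaSeq. The authors deposited 1 table of raw counts, whole numbers of reads per gene symbol without normalization, for 16 libraries. The submitters' processing notes name HISAT2, StringTie and the build GRCh37. The counting step and the annotation are not given in the sources used here. Samples were grouped by line and treatment as labelled, 2 libraries a group. Column names identified the sample in all 16 cases.

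With edgeR 4.0.16 (R 4.3.3), filterByExpr on the 8 groups kept 21297 of 35993 genes, TMM set the library sizes, and 1 quasi-likelihood model took all 16 libraries. Contrasts were CM-1758 against control in each line, the interaction over the 4 lines and the difference between control lines, with Benjamini-Hochberg adjustment over all tested genes. The SE was obtained as the absolute log2 fold change over the root of its F statistic, and log2 CPM has a prior count of 2. Total counts of 22506431 to 32537104 and a common biological coefficient of variation of 0.153 set the precision. The scripts were tested on simulated data with known changes. A counting interval is the exact 95% interval of the ratio of 2 counts.

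The members, the lists and the rule for members named were chosen with earlier results of these data known. That rule takes the 3 highest control members of each cluster, the 3 largest and 3 smallest called changes in each line, members called in 1 direction in all 4 lines, C-type members and members called in opposite directions. Members beyond it serve as examples chosen after their values were seen. List genes are named where called in 1 direction in all 4 lines, where a called change passed 2 on the log2 scale, or as examples. The lists are protocadherins outside the clusters, cluster pseudogenes, neighbours, chromatin factors, receptor partners, and epithelial, neuronal, immune and endothelial markers.

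Alternatives were RLE normalisation, library size alone, no filter, a mean of at least 10 counts, DESeq2 1.42.0, each line alone, a replicate block, stricter calls and leaving out each library. Per-length values use GENCODE 29 transcripts. Promoters are RefSeq windows on GRCh38.p14, which differs from the build of the files, and no coordinates were moved between builds. PCDHA3, PCDHA13, PCDHB6, PCDHB11, PCDHGA12 and PCDHGC5 had no window in the table. No protein sequences were used here.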

Additional observations from a re-analysis of the deposited data

Results flagged for a closer look

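Called changes with CM-1758 went in opposite directions in different cell lines for 16 members, against 12.9% of all tested genes. Each fell in 253J and rose in at least 1 other line, and in each the effect differed between the 4 lines by edgeR's interaction test. Because the members were picked by opposite calls in the same fit, a pass was likely beforehand, and the p-values below are no separate support. With library size alone 12 of the 16 remained. Some calls were lost when single libraries were left out, such as those of PCDHGA6 in 253J and RT112 and of PCDHGA7 in 253J and TCCSUP. In the alpha cluster the adjusted p of the interaction was 2.41e-06 for PCDHA6, 9.64e-06 for PCDHA7, 8.13e-06 for PCDHA10 and 4.96e-06 for PCDHAC2. In the beta cluster it was 2.32e-05 for PCDHB3, 0.000791 for PCDHB5, 3.47e-05 for PCDHB7, 0.000263 for PCDHB9, 0.000966 for PCDHB13, 1.3e-06 for PCDHB14 and 0.000172 for PCDHB15. In the gamma cluster it was 0.00893 for PCDHGA6, 0.00657 for PCDHGA7, 0.000655 for PCDHGB4, 0.000374 for PCDHGB5 and 0.00115 for PCDHGB6. The level before treatment moved with the direction in some of these, since PCDHA6 stood at 44.5 and 50.6 CPM in 253J controls against 0.229 to 0.989 CPM in the RT112 and TCCSUP controls, whereas PCDHB5 stood at 0.543 and 0.689 CPM in 253J against 2.91 to 8.65 CPM there. The part of the starting level was not tested.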

How the results depend on the processing

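The 78 calls of named members did not reverse in any setting in which they were run, and some settings did not cover all of them. Without J82 CM-1758 replicate 1, PCDHA8 in J82 had a log2 fold change of 0 and so no direction. Outside single-library omissions 495 of 503 repeats kept the call and 8 lost it, 5 of them with library size alone, 2 with DESeq2 and 1 without the filter. Library size alone moved the median of all genes up by 0.27, 0.14, 0.15 and 0.31 on the log2 scale in 253J, J82, RT112 and TCCSUP. It left 0 members that fell in TCCSUP and gave log2 ratios of the cluster sums of -0.38 (alpha), -1.27 (beta) and -0.95 (gamma) in 253J, 0.85 (gamma) in RT112, and 3.85 (alpha), 0.79 (beta) and 0.16 (gamma, changed in sign) in TCCSUP. With each line alone, 43 members were tested in 253J and 28 in J82, and 2 rose in 253J, 8 rose in J82 and 4 fell in TCCSUP. Among members whose mean count in the line was 10 or more, chosen after seeing the data, 2 rose in 253J and 8 in J82. At a log2 fold change beyond 2 and an adjusted p under 0.01, 1 rose and 2 fell in 253J, 11 rose and 0 fell in J82, 23 rose in RT112, and 17 rose and 0 fell in TCCSUP.

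Each of the 16 libraries was left out in turn. For any call most of these fits left out a library of another line, so a pooled share of kept calls says little and is not given. Such a fit leaves a group with 1 library, which is assumed to vary like the others. The members that rose numbered 2 to 6 in 253J (2 without control replicate 2, 3 without CM-1758 replicate 3), 13 to 22 in J82 (13 without control replicate 3), 31 to 37 in RT112 and 21 to 26 in TCCSUP. Those that fell numbered 16 to 26 in 253J, 0 to 2 in J82 (0 without CM-1758 replicate 3, 2 without control replicate 3), 0 in RT112 and 0 to 2 in TCCSUP (2 without either 253J CM-1758 library, 0 without TCCSUP control replicate 2 or either treated library). The interaction was called for 33 to 41 members and the difference between control lines for 49 to 51.

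Replicate numbers recur in J82, RT112 and TCCSUP, but deviations of same-numbered libraries correlated at 0.218, 0.0427 and 0.0173, so the numbers were not taken as pairs. With the replicate number as a block, 22, 36 and 25 members rose and 1, 0 and 1 fell, and 52 of 52 named calls were kept. In 253J the groups share 1 number, and no block was fitted. Low counts limit the size of 11 of the 21 rises in J82, which started from 0 to 3 control counts.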

Other observations

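LRIF1, which encodes a partner of the chromatin protein SMCHD1 and is named here after its values were seen, was at 0 CPM in both groups of 253J. In the other lines it stood at 33.7 ± 1.10 CPM in J82 controls (SD, n = 2), 22.2 ± 1.93 in RT112 controls and 34.0 ± 2.98 in TCCSUP controls. With CM-1758 it was at 34.3 ± 2.81, 37.6 ± 2.35 and 38.2 ± 0.182 CPM. The rise in RT112 passed edgeR's test (log2 fold change 0.76 ± 0.14, SE, adjusted p = 0.00062), and the differences in J82 and TCCSUP did not.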
